A study of Bos taurus with 39 samples.

Results

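Predicted miR-559, miR-560, miR-835, miR-318-0 and miR-319 are 5 entries of the table of predicted bovine miRNAs that resemble each other in sequence, where a sequence is listed, or in counts. They were chosen by name, because they had stood out between CBX and DO oocytes at 1 h (miR-559, miR-560, miR-835 and miR-318-0) or at 6 h, and between control and DO oocytes at 22 h (miR-318-0 and miR-319 in both), and because their counts had moved together. In the fit made here, 0 of 445 entries passed the threshold between control and DO oocytes at 22 h. There miR-559 and miR-835 differed by more (log2 fold changes of 2.17) than miR-318-0 (1.19) and miR-319 (1.21), so their rise was not unseen. The 5 entries are among 965 predicted and 1030 known miRNAs, 1995 in all. Predicted miR-560 repeated the counts of miR-559 in 39 of 39 libraries, so the 5 entries hold 4 distinct measurements, and miR-559 stands for both in what follows. No other entry of the table repeated the counts of a member in every library.

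The libraries are miRNA sequencing libraries of pooled bovine oocytes, with 3 per condition. Control oocytes matured for 1, 6 or 22 h inside their cumulus-oocyte complexes (COCs), CBX oocytes did so in the presence of carbenoxolone, a blocker of gap junctions, co-culture oocytes were stripped of cumulus cells and kept with intact COCs but apart from them, and DO (denuded oocyte) libraries come from stripped oocytes matured on their own. A further 3 control libraries are labelled 0 h. Per the study's methods, complexes were taken apart with hyaluronidase after maturation whereas denuded oocytes received pronase to remove the zona, so that step and the absence of attached cumulus cells cannot be told apart in comparisons of the DO and co-culture groups with the other groups.

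A miRNA guides the silencing complex to messenger RNAs, and pairing is led by its seed, the short stretch that follows its first base. During maturation the oocyte is coupled to cumulus cells by gap junctions at the ends of projections that cross the zona, and small RNAs are among the molecules proposed to pass. A predicted miRNA is one that software infers from reads that fold into a hairpin with the flanking genome, so its identity as a miRNA is not established, and predicted entries with similar sequences can receive the same reads.

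The mature sequences listed for miR-559 and miR-318-0 are shown because they let the closeness of these entries be seen. Capitals mark the seed (bases 2 to 8), 5′ to 3′.
miR-559: gGCGCGCCcccgccgcgc
miR-318-0: gCGCGCCCccgccgcgcg
Both are 18 bases long and made of 11 C and 7 G, a GC content of 100%. The same sequences are given again with their longest common stretch in capitals, 17 bases that start at base 2 of miR-559 and at base 1 of miR-318-0.
miR-559: gGCGCGCCCCCGCCGCGC
miR-318-0: GCGCGCCCCCGCCGCGCg
Joined over that stretch they make 1 string of 19 bases. Their seeds differ by a shift of 1 base and share 6 bases. Predicted miR-559 was listed on the minus strand at chr27:6219131-6219238 and miR-318-0 on the plus strand at chr17:69639696-69639803 (ARS-UCD1.2), each span 108 bases long. The genes at these positions were not analysed here, and no sequence was listed for miR-319, miR-560 or miR-835.

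Among the 16 other predicted miRNAs with a listed sequence, GC content ranged from 31.6% to 100% with a median of 60.0%, and 0 carried the seed of miR-559 or miR-318-0. The closest was predicted miR-895 (chr9:93405029-93405136, plus strand), also composed only of G and C, with 9 bases in common with miR-559, in capitals here.
miR-895: GCGCCCCCGgggccgcgg
The median longest stretch shared with miR-559 over these 16 was 3 bases. Over the 39 libraries the levels of miR-895 had a Pearson r of 0.29 with miR-559 and 0.18 with miR-318-0.

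Total miRNA counts ranged from 11985 to 175429 per library with a median of 70069, and a floor of 3 counts corresponded to 17.3 to 260.6 CPM (counts scaled to a common library total after TMM normalization over the 39 libraries), which covers counting error only. Predicted miRNAs held 53.1% to 62.2% of the counts in 37 libraries, whereas the third control library at 0 h and the first control library at 6 h held 47.3% and 49.4%. Totals were under 40000 in 4 libraries, the first control library at 0 h (11985), the second CBX library at 22 h (18796), the first control library at 6 h (20180) and the second DO library at 1 h (32676). As a check of the labelled cell type, 7 of 8 cumulus- or granulosa-linked miRNAs had counts and summed to between 3347 and 11320 CPM per library, the miRNAs linked to blood had counts for 6 of 6 entries and summed to between 106 and 3180 CPM, and of 3 miRNAs linked to oocytes and early embryos 2 were at 0 in every library and the other summed to at most 35.4 CPM. Of the cumulus-linked counts, bta-miR-21-5p held 14720, ahead of bta-miR-202 (1926) and bta-miR-424-5p (1575). No miRNA defines the oocyte by itself, so these sums do not settle the cell type. At 22 h the cumulus-linked sum averaged 10300 CPM in the control group, 5431 in the CBX group, 6070 in the co-culture group and 6741 in the DO group, and its part in the differences described here was not tested. In such pooled libraries, fewer cells and less RNA per cell cannot be told apart.

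Predicted miR-559 was the most abundant member, with 14147 counts over the 39 libraries, 0.467% of all counts, and it ranked 32 among all entries. Predicted miR-835 had 8547 counts and ranked 56. Predicted miR-318-0 had 2836 counts and ranked 150, and miR-319 had 2431 and ranked 160. Counts per library ran from 1 to 1093 (median 292) for miR-559, from 0 to 695 (median 184) for miR-835, from 0 to 246 (median 70) for miR-318-0 and from 0 to 199 (median 55) for miR-319. All 4 measurements passed the low-count filter in every comparison made.

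The highest mean level of each member was in the DO group at 22 h. Predicted miR-559 was there at 14008, 11473 and 17524 CPM in replicates 1, 2 and 3, a mean of 14335 ± 3039 (SD, n = 3). In the same group it was at 1854, 586 and 2953 CPM at 1 h and at 2225, 4452 and 2929 CPM at 6 h. No library of the other 12 conditions reached the 3 DO libraries at 22 h, and the next-highest library was the first CBX library at 1 h, at 9358 CPM.

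In the control group miR-559 was at 2370 ± 1879 CPM at 0 h, 4346 ± 2810 at 1 h, 3197 ± 4358 at 6 h and 3612 ± 2448 at 22 h (SD, n = 3 each). Its mean in the CBX group was 5601 ± 3281 at 1 h, 4558 ± 1645 at 6 h and 3069 ± 2301 at 22 h, and in the co-culture group 4145 ± 1337, 4413 ± 1464 and 5822 ± 2975 at the same times (SD, n = 3 each). In the DO group it was 1798 ± 1184 at 1 h, the lowest of the 13 conditions, and 3202 ± 1138 at 6 h (SD, n = 3 each). When the conditions were ordered by mean, 1 of the 12 steps between neighbours was larger than the spread of the difference (the root of the summed squared SDs), the step down from the DO group at 22 h.

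The raw counts of miR-559 show how far single libraries weigh on these means. In the control group, replicates 1, 2 and 3 held 42, 242 and 10 counts at 0 h, 623, 331 and 77 at 1 h, and 1, 396 and 89 at 6 h, and at 22 h their levels were 1807, 6398 and 2630 CPM. In the CBX group they held 1093, 172 and 433 at 1 h, 547, 341 and 199 at 6 h, and 292, 13 and 448 at 22 h. Counts in the co-culture group were 428, 444 and 221 at 1 h, 1026, 171 and 243 at 6 h, and 356, 435 and 545 at 22 h. The DO group held 166, 20 and 262 counts at 1 h and 980, 637 and 1067 at 22 h. The first control library at 6 h had 1 count of miR-559 and 0 of miR-835, miR-318-0 and miR-319, under its floor of 158.9 CPM, and it is one of the shallow libraries with a low predicted share.

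**Figure D1:**
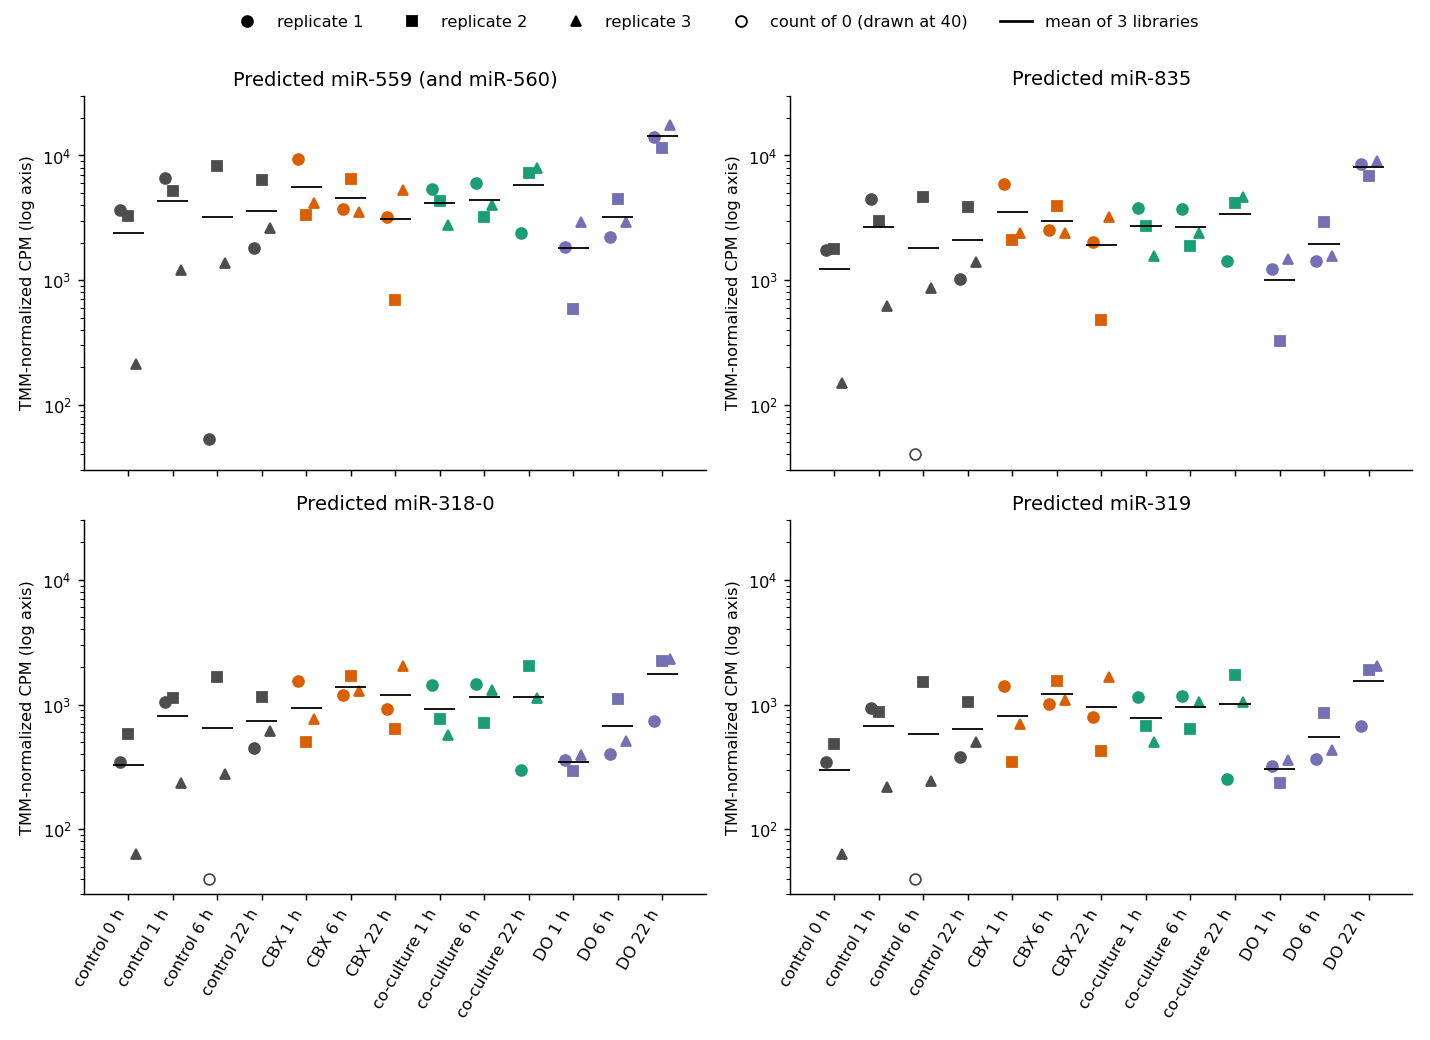
TMM-normalized CPM (log axis) of miR-559 (equal to miR-560), miR-835, miR-318-0 and miR-319 in each of the 39 libraries over the 13 conditions, with a bar for the mean of 3 libraries and counts of 0 drawn as open circles at 40. The DO group at 22 h stands above all other conditions for miR-559 and miR-835, whose 3 libraries there lie between 11473 and 17524 and between 6826 and 8968 CPM, and overlaps other conditions for miR-318-0 and miR-319.

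Predicted miR-835 was likewise lowest in the DO group at 1 h and highest there at 22 h. Its level in the DO group was 1005 ± 603 CPM at 1 h, 1967 ± 816 at 6 h and 8133 ± 1146 at 22 h (SD, n = 3 each), and in the other 10 conditions its mean lay between 1220 CPM (control, 0 h) and 3491 CPM (CBX, 1 h). The DO group at 22 h was again its only step beyond the spread.

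Predicted miR-318-0 was at 348 ± 51.4 CPM at 1 h, 677 ± 385 at 6 h and 1764 ± 885 at 22 h in the DO group (SD, n = 3 each). The single DO libraries at 22 h were at 743, 2233 and 2316 CPM, so the first lies well below the other 2. Its mean was between 330 CPM (0 h) and 807 CPM (1 h) in the control group, between 938 CPM (1 h) and 1383 CPM (6 h) in the CBX group, and between 924 CPM (1 h) and 1157 CPM (22 h) in the co-culture group. None of its 12 steps between neighbouring conditions was larger than the spread of the difference. Predicted miR-319 ran parallel, from 298 CPM (control, 0 h) to 1539 ± 754 CPM (DO, 22 h; SD, n = 3), also with 0 of 12 steps beyond the spread.

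Added together, the 4 distinct measurements were 2.42% ± 0.42 of the miRNA counts in the DO group at 22 h (SD, n = 3; 2.23%, 2.13% and 2.91% in replicates 1, 2 and 3) and 0.372% ± 0.208 at 1 h (SD, n = 3). The mean share of the other 11 conditions lay between 0.431% and 1.13%.

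**Figure D2:**
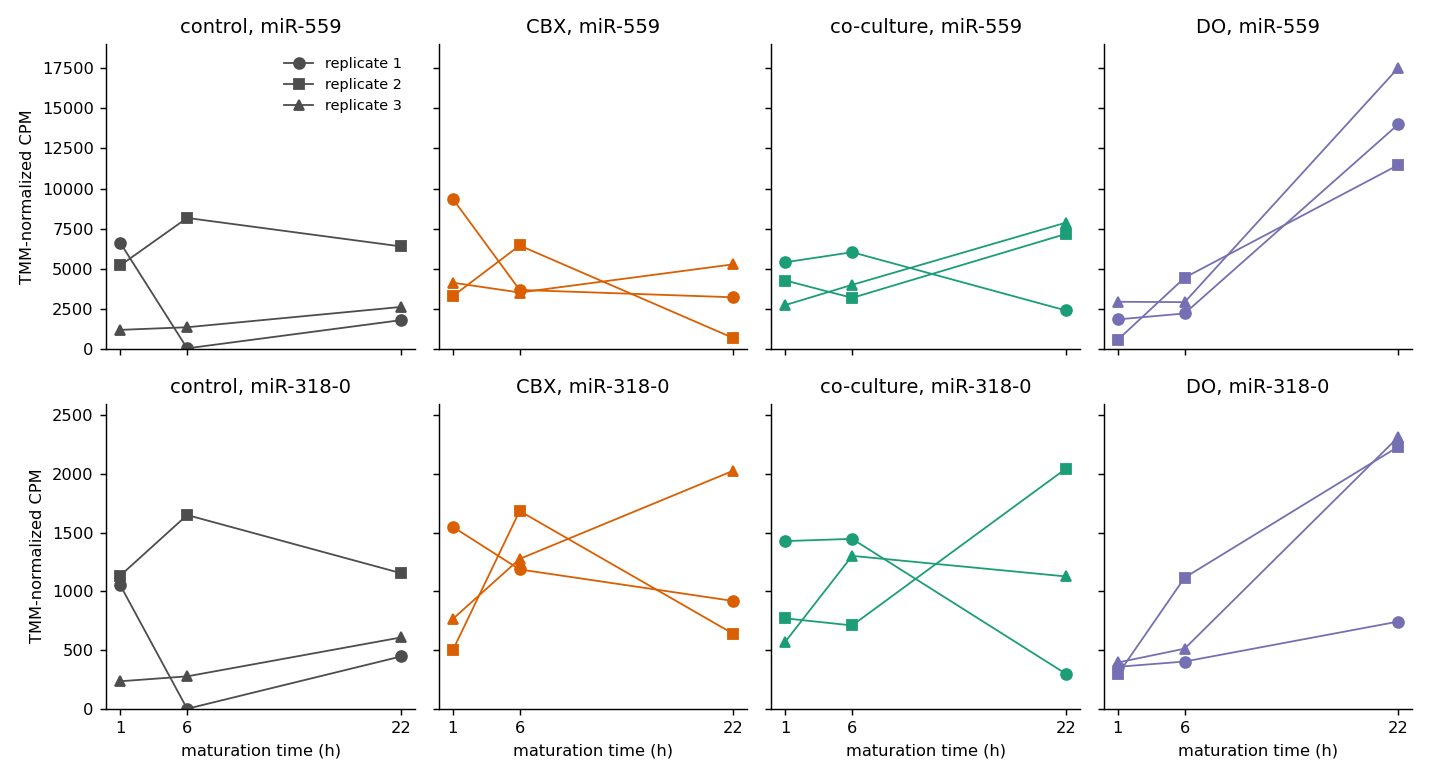
TMM-normalized CPM of miR-559 (upper row) and miR-318-0 (lower row) against maturation time in h, 1 panel per group, with a line joining the libraries of each replicate number. In the DO group all 3 lines of miR-559 end at 22 h between 11473 and 17524 CPM, and in the other groups the highest library is at 9358 CPM.

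The members fell into pairs whose counts kept a narrow ratio, and the ratio between the pairs did not stay narrow. Predicted miR-835 never exceeded miR-559, miR-319 never exceeded miR-318-0, and miR-318-0 never exceeded miR-559, in 39 of 39 libraries each. Among the 35 libraries with at least 30 counts of miR-559, miR-835 held between 0.48 and 0.70 counts per count of miR-559 (median 0.60), a range of 1.47-fold. Among the 31 libraries with at least 30 counts of miR-318-0, miR-319 held between 0.76 and 0.92 counts per count of miR-318-0 (median 0.87), a range of 1.21-fold.

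The ratio of miR-318-0 to miR-559 spanned 7.24-fold over the same 35 libraries, from 0.053 to 0.38 with a median of 0.20. Its lowest value came from the first DO library at 22 h, with 52 counts of miR-318-0 and 980 of miR-559 (95% interval 0.039 to 0.070). The highest came from the third CBX library at 22 h, with 172 and 448 counts (95% interval 0.32 to 0.46), and the intervals do not overlap. They are exact Clopper-Pearson intervals of the share of one entry in both, cover counting error only, and assume that no read was counted for both entries, which the sources used here do not state.

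**Figure D3:**
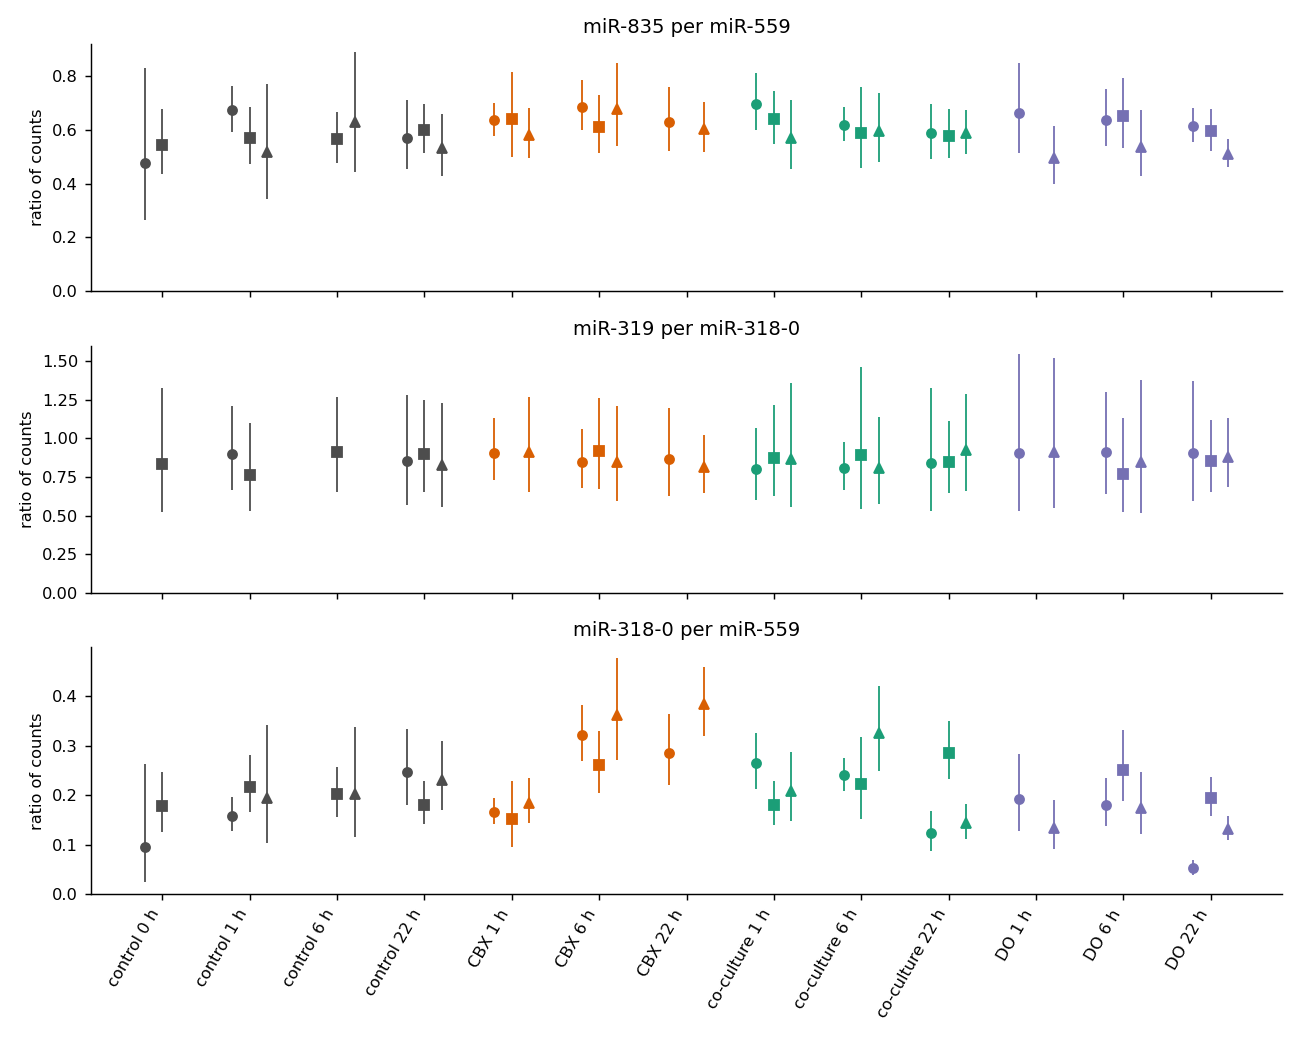
Ratios of raw counts per library over the 13 conditions, for libraries with at least 30 counts in the denominator, with exact 95% intervals that cover counting error only. The upper panels (miR-835 per miR-559, miR-319 per miR-318-0) stay within 1.47-fold and 1.21-fold, and the lower panel (miR-318-0 per miR-559) spans 7.24-fold.

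That ratio also differed between some conditions. In the CBX group it was between 0.15 and 0.18 at 1 h and between 0.26 and 0.36 at 6 h, with no overlap. At 22 h it lay between 0.28 and 0.92 in the CBX group, where the highest value rests on 12 and 13 counts, and between 0.053 and 0.19 in the DO group, again with no overlap. The control group (0.18 to 0.25) and the co-culture group (0.12 to 0.29) at 22 h both overlapped the DO group. The comparisons named here were picked from those among the 13 conditions, and how many of the rest overlap was not counted. These values are given without a test, since they rest on the counts that chose the members.

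Over the 39 libraries, log2 levels (prior count 2) of miR-559 and miR-835 had a Pearson r of 0.993, and those of miR-318-0 and miR-319 an r of 0.996. Across the pairs, r was 0.894 for miR-559 with miR-318-0 (Spearman's rho 0.855), 0.909 for miR-559 with miR-319, 0.911 for miR-835 with miR-318-0 and 0.922 for miR-835 with miR-319. The points share library, depth and possibly reads, and the correlation took part in choosing the members, so these are descriptions. Without the 2 control libraries of low predicted share, which are also the 2 farthest from the median, r of miR-559 with miR-318-0 was 0.776. Taken as deviations from the condition means, with those 2 libraries kept, it was 0.91. That value describes movement among replicates of one condition and was not computed without them.

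**Figure D4:**
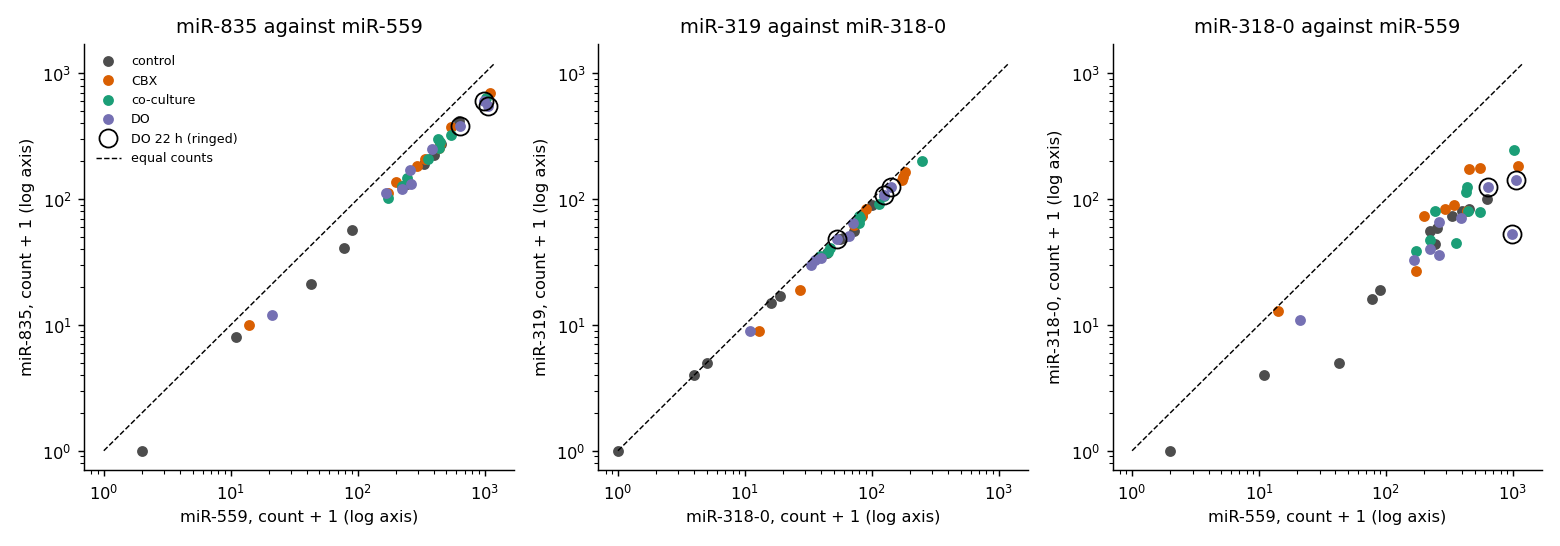
Raw counts + 1 of 39 libraries on log axes for miR-835 against miR-559, miR-319 against miR-318-0 and miR-318-0 against miR-559, with colours for groups, rings for the DO group at 22 h and a dashed line for equal counts. The first and second panels form narrow bands below the line (Pearson r of the log2 levels 0.993 and 0.996), and the third is wider (0.894).

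The level of miR-559 had an r of 0.39 with the log2 total of the library and 0.50 with the share of predicted miRNAs. Without the 2 libraries of low predicted share these values were 0.21 and -0.01. Among the other miRNAs with a mean of at least 10 counts, the 3 whose levels were most like those of miR-559 were bta-miR-105a (r = 0.784), bta-miR-152 (0.768) and bta-miR-335 (0.724), where the median r was 0.08. Without the 2 libraries of low predicted share these were 0.604, 0.49 and 0.668. For miR-318-0 they were predicted miR-64 (0.85), bta-miR-105a (0.812) and bta-miR-152 (0.736), or 0.809, 0.648 and 0.354 without the same 2 libraries. With all libraries, the least like both was bta-let-7i, with r of -0.73 with miR-559 and -0.71 with miR-318-0. Without those 2 libraries its r was -0.42 and -0.38.

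In the comparisons that chose the members, values are given without p-values. An entry was called where its adjusted p was under 0.05 and its log2 fold change was 1 or more in size. Between CBX and DO oocytes at 1 h, 7 of 479 entries were called (1.46%, and 1.04% lower in the DO group). The level of miR-559 was lower in the DO group by a log2 fold change of -1.70 (SE 0.36), of miR-835 by -1.78 (SE 0.37), of miR-318-0 by -1.33 (SE 0.38) and of miR-319 by -1.30 (SE 0.38), each in 3 of 3 replicate pairs. Predicted miR-318-0 lies just inside the threshold here and miR-319 just outside it.

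Between CBX and DO oocytes at 6 h, 10 of 426 entries were called (2.35%), all lower in the DO group. Predicted miR-318-0 had a log2 fold change of -1.11 (SE 0.28) and miR-319 of -1.17 (SE 0.29), both inside the threshold. For miR-559 it was -0.47 (SE 0.23) and for miR-835 -0.58 (SE 0.24), both outside it. In 3 of 3 pairs the DO library was the lower one, for all 4 members.

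Between control and DO oocytes at 22 h, edgeR's test called 0 of 445 entries, with 34 at an unadjusted p under 0.05, and DESeq2 called 4. The DO group was the higher one, with a log2 fold change of 2.17 (SE 0.43) for miR-559, 2.17 (SE 0.44) for miR-835, 1.19 (SE 0.28) for miR-318-0 and 1.21 (SE 0.30) for miR-319, each in 3 of 3 pairs. From control to DO oocytes at 6 h these changes were 1.03 (SE 0.88), 0.95 (SE 0.91), 0.70 (SE 0.75) and 0.54 (SE 0.77). Each was higher in the DO group in 2 of 3 pairs. These values include the first control library at 6 h, which held 1 count of miR-559 and 0 of miR-835, miR-318-0 and miR-319. At 1 h the changes from control to DO oocytes were below 0.

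Within the DO group, miR-559 had a log2 fold change from 1 h to 22 h of 3.08 (SE 0.32), or 8.44-fold, miR-835 of 3.05 (SE 0.34), or 8.26-fold, miR-318-0 of 2.05 (SE 0.40), or 4.15-fold, and miR-319 of 2.05 (SE 0.40), or 4.13-fold, each higher at 22 h in 3 of 3 pairs. All 4 passed the threshold in this comparison, where 8 of 442 entries were called (1.81%, and 1.58% higher at 22 h). The DO libraries at 1 h helped to choose miR-559, miR-835 and miR-318-0 for being low and those at 22 h helped to choose miR-318-0 and miR-319 for being high, so these calls are no independent evidence and no p is given. Without replicate 3, none of the 4 passed the threshold, at log2 fold changes of 3.43 for miR-559, 3.38 for miR-835, 1.81 for miR-318-0 and 1.83 for miR-319.

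In the other 14 comparisons between times, no member passed the threshold, and between groups, outside the comparisons that chose the members, 0 of 60 values over 15 comparisons passed it with edgeR's quasi-likelihood test. Of those 60, 15 had an unadjusted p under 0.05, and DESeq2 called 4. Over all entries the same 15 comparisons gave 4 calls in 6533 tests (0.0612%), with 313 at an unadjusted p under 0.05 and 21 calls by DESeq2. The 15 comparisons between times gave 11 edgeR calls over all entries in 6485 tests (0.17%), 8 of them in the DO group from 1 h to 22 h. There 431 had an unadjusted p under 0.05 and DESeq2 called 27. Of the 60 member values between times, edgeR called 4, 13 had an unadjusted p under 0.05 and DESeq2 called 6. Of the tests between groups, between times and of their interaction, 75 used no library of the group comparisons that had chosen the member concerned, although the correlation over all 39 libraries also took part in the choice, so that these tests are not free of it either. None of those 75 passed the threshold with edgeR, 16 had an unadjusted p under 0.05, and DESeq2 called 6. Because miR-559 and miR-835 (r of 0.993) and miR-318-0 and miR-319 (0.996) are near-duplicates, these tests are not independent of each other. For miR-559 and miR-835 they include tests with the DO libraries at 22 h. Control against DO at 22 h had already shown both higher, by log2 fold changes of 2.17. All 6 DESeq2 calls are of miR-559 or miR-835 in tests with those libraries, so the set is no independent evidence. No share over all entries was computed for this set.

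The largest of those differences set the DO group at 22 h against the CBX group at 22 h. Predicted miR-559 was at 3231, 691 and 5284 CPM in the CBX group and at 14008, 11473 and 17524 CPM in the DO group. The groups do not overlap. How many other entries also keep the groups apart, here or against the co-culture group below, was not counted. The log2 fold change of miR-559 was 2.42 (SE 0.41), or 5.36-fold. The Benjamini-Hochberg adjusted p was 0.0833 from the quasi-likelihood test of edgeR and 5.88e-06 from DESeq2. The same DO libraries served in control against DO at 22 h, where miR-559 and miR-835 were already higher by log2 fold changes of 2.17. The p-values printed for both with these libraries, here and below, are therefore no independent evidence. Of 431 entries, edgeR called 1 (0.232%), which was not a member, and DESeq2 called 4.

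For miR-835 in the same comparison the log2 fold change was 2.24 (SE 0.40), with an adjusted p of 0.0836 from edgeR and 0.000336 from DESeq2, and both were higher in the DO group in 3 of 3 pairs. Predicted miR-318-0 had a log2 fold change of 0.44 (SE 0.41) and miR-319 of 0.57 (SE 0.45), given without p because the DO libraries at 22 h had helped to choose both. The second CBX library, of 18796 counts, held 13 counts of miR-559, and without replicate 2 the log2 fold changes were 1.88 for miR-559, 1.74 for miR-835, -0.07 for miR-318-0 and 0.02 for miR-319. Without that replicate, miR-318-0 and miR-319 thus differed by less than their standard errors of 0.25 and 0.26. In fits on 2 libraries per group, miR-559 passed the threshold with edgeR without replicate 2 or 3, but not without replicate 1. Calls over all entries in those fits are not given.

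Against the co-culture group at 22 h, where miR-559 was at 2411, 7176 and 7878 CPM, the DO libraries were also all higher. The log2 fold change was 1.39 (SE 0.32) for miR-559 (adjusted p = 0.187 from edgeR, 0.00389 from DESeq2) and 1.35 (SE 0.34) for miR-835 (adjusted p = 0.214 from edgeR, 0.00984 from DESeq2). It was 0.72 (SE 0.25) for miR-318-0 and 0.73 (SE 0.25) for miR-319, again without p for the same reason. Each was higher in the DO group in 3 of 3 pairs. Without replicate 2, miR-559 passed the threshold with edgeR at a log2 fold change of 1.83, and without replicate 1 or 3 it did not. Each of these fits rests on 2 libraries per group, and calls over all entries in them are not given. With all replicates, edgeR called 0 of 420 entries and DESeq2 called 3.

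Between 6 h and 22 h in the DO group, miR-559 had a log2 fold change of 2.19 (SE 0.30), or 4.56-fold, with an adjusted p of 0.0539 from edgeR and 1.34e-10 from DESeq2. For miR-835 it was 2.10 (SE 0.32, adjusted p = 0.0693 from edgeR, 1.2e-08 from DESeq2). For miR-318-0 it was 1.32 (SE 0.31) and for miR-319 1.39 (SE 0.31), without p because the DO libraries of both times had helped to choose them. All 4 were higher at 22 h in 3 of 3 pairs. Without replicate 2 miR-559 passed the threshold with edgeR, and without replicate 1 or 3 it did not, in fits on 2 libraries per group. Calls over all entries in those fits are not given. With all replicates, edgeR called 0 of 415 entries from 6 h to 22 h and DESeq2 called 7. From 1 h to 6 h in the DO group, miR-559 had a log2 fold change of 0.86 (SE 0.52).

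At 1 h, where the DO libraries had also served in the choice, miR-559 was lower in the DO group than in the co-culture group by a log2 fold change of -1.37 (SE 0.46), miR-835 by -1.49 (SE 0.46), miR-318-0 by -1.32 (SE 0.38) and miR-319 by -1.27 (SE 0.37), and none of the 4 passed the threshold. At 6 h the co-culture group exceeded the DO group by less, with log2 fold changes of -0.51 (SE 0.24) for miR-559 and -0.95 (SE 0.31) for miR-318-0, neither past the threshold. A test of whether the difference between the co-culture and DO groups changed from 6 h to 22 h gave 1.92 (SE 0.61) on the log2 scale for miR-559, with an adjusted p of 0.338 from edgeR and 0.0916 from DESeq2. In the 6 interactions of group and time tested, 0 of 24 member values passed the threshold with edgeR, 8 had an unadjusted p under 0.05, and DESeq2 called 2. Over all entries, edgeR called 0 of 2978, 128 had an unadjusted p under 0.05, and DESeq2 called 6.

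**Figure D5:**
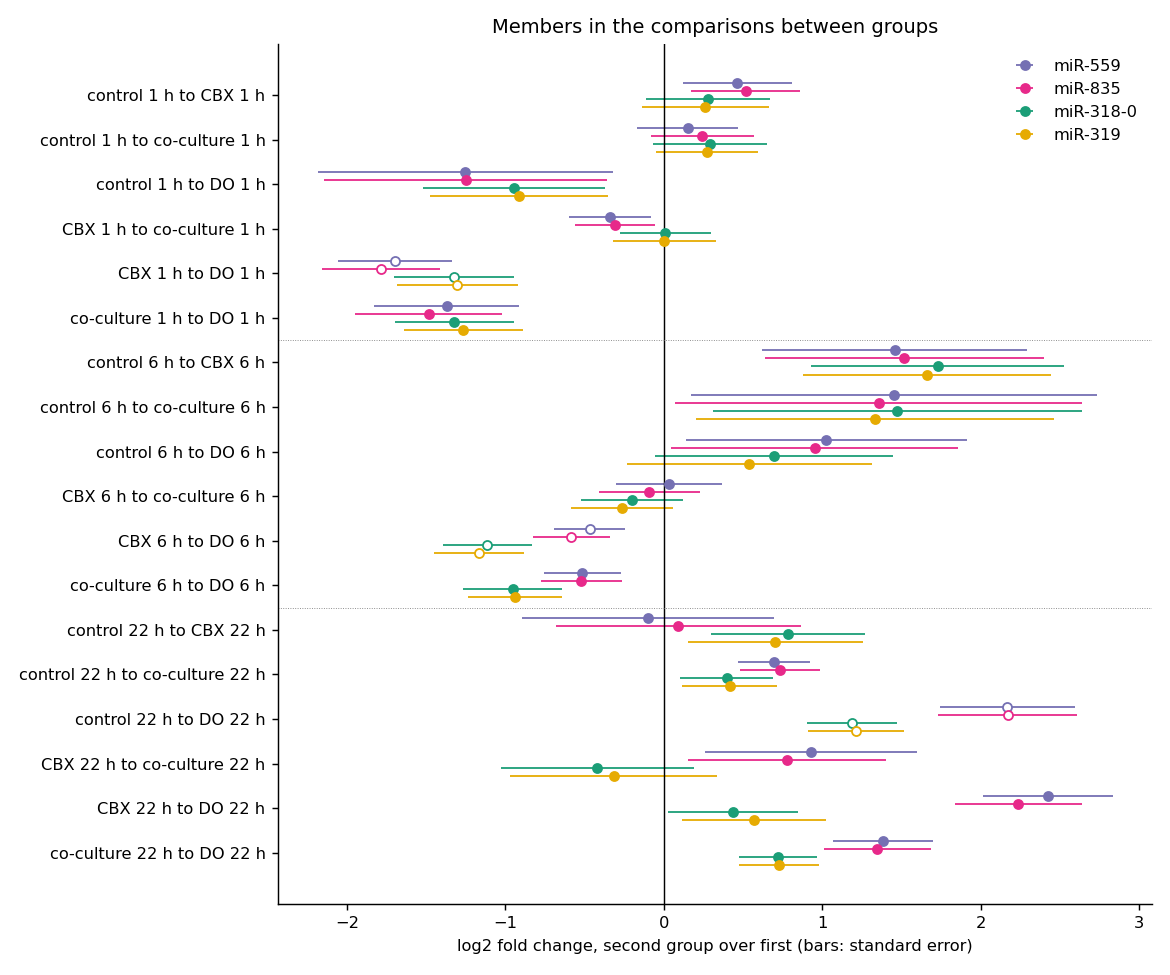
Log2 fold change (second group over first) of the 4 measurements in the 18 comparisons between groups at 1, 6 and 22 h, with bars for the standard error. Open symbols mark the 3 comparisons that chose the members. Changes towards the DO group are below 0 at 1 h and at 6 h, apart from control against DO at 6 h, and above 0 at 22 h, where miR-559 (2.42 against CBX) and miR-835 (2.24) lie above miR-318-0 (0.44) and miR-319 (0.57).

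Among the oocytes that kept their cumulus cells, miR-559 had a log2 fold change from the control to the CBX group of 0.47 (SE 0.34) at 1 h, 1.46 (SE 0.84) at 6 h and -0.10 (SE 0.79) at 22 h, with adjusted p of 0.938 and 0.974 from edgeR at 6 h and 22 h. The value at 6 h rests on the first control library with its 1 count, and without replicate 1 it was 0.41 (SE 0.49). The value at 22 h rests on the shallow second CBX library. Without replicate 2, the log2 fold changes at 22 h were 0.91 (SE 0.18) for miR-559, 1.08 (SE 0.20) for miR-835, 1.39 (SE 0.26) for miR-318-0 and 1.39 (SE 0.28) for miR-319, in a fit on 4 libraries. Predicted miR-835, miR-318-0 and miR-319 then passed the threshold with edgeR, and the change of miR-559 is under the fold threshold. Calls over all entries in this reduced fit are not given. No p is given for these fits, and the control libraries at 22 h had helped to choose miR-318-0 and miR-319. With all 6 libraries the log2 fold changes at 22 h were between -0.10 and 0.79.

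From the control to the co-culture group, miR-559 had a log2 fold change of 0.15 (SE 0.32) at 1 h, 1.45 (SE 1.28) at 6 h and 0.70 (SE 0.23) at 22 h, with adjusted p of 0.994, 0.846 and 0.362 from edgeR, and at 22 h it was higher in the co-culture group in 3 of 3 pairs, in a comparison where 1 of 464 entries was called (0.216%, lower in the co-culture group), not a member. From 0 h to 1 h in the control group it was 1.23 (SE 0.37), higher in 3 of 3 pairs, with an adjusted p of 0.425 from edgeR. In the control group between 1 h and 22 h it was -0.18 (SE 0.41), in the CBX group -1.10 (SE 0.51) and in the co-culture group 0.36 (SE 0.48), and none of these passed the threshold. Pooled over the 4 groups, the 3 contrasts between times gave 0 calls in 12 member values with edgeR, 0 at an unadjusted p under 0.05 and 0 with DESeq2, against 9 calls in 1398 tests of all entries (0.644%).

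Other predicted miRNAs with listed sequences, chosen by the study on these samples, serve as a background for the members. Of the 16, 15 were tested from 1 h to 22 h in the DO group, where 1 rose and 1 fell past the threshold and the median log2 fold change was 0.08. From the CBX to the DO group at 22 h, 1 of the 15 tested was called higher, none lower, and the median was 0.04. Of 9 known entries whose sequences resemble ribosomal, transfer or small nuclear RNA, 5 had counts, and their summed level ranged from 106 to 3457 CPM per library, with an r of 0.13 with miR-559 over the 39 libraries. In the DO group this sum averaged 300 CPM at 1 h, 324.3 at 6 h and 1177 at 22 h, and so it was highest at 22 h, as the members were. At 22 h it averaged 398.9 CPM in the control group, 351.5 in the co-culture group and 1903 in the CBX group, and its part in the members' differences was not tested. The origin of the GC-only reads was not tested.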

How the data were processed

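The 39 libraries were grouped by treatment and time from the labels. The deposited values are whole-number counts per mature miRNA, not normalized. Per the paper's methods and the labels, the authors trimmed the reads and removed duplicates by molecular identifier with UMI-tools (1.1.2 in the submitters' processing notes), checked them with FastQC 0.11.9, aligned them to ARS-UCD1.2, and assigned them to miRBase or to miRNAs predicted with miRPro. How reads shared between similar entries were counted is not given in the sources used here. Known and predicted tables were joined, and 0 columns of per-sample values were left out.

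For each comparison, the libraries concerned were fitted with edgeR 4.0.16 (limma 3.58.1, R 4.3.3): filterByExpr (minimum count 10, minimum total 15), TMM, a quasi-likelihood test with the replicate number as block, and Benjamini-Hochberg adjustment over all entries tested. DESeq2 1.42.0 was an alternative. SE is the absolute log2 fold change over the square root of F. Levels in CPM used TMM over all 39 libraries. Both procedures were tested on simulated data. The replicate number is taken as the ovary pool that the study used as batch. Same-numbered libraries deviated together with a correlation of -0.11 to 0.70 (median 0.24, 41 of 54 pairs over 0.1) between groups and -0.21 to 0.45 (median 0.21, 27 of 45) between times. Per the paper's methods, the experiment was repeated, and repeats were pooled to form each replicate. The labels do not match libraries to those repeats, so p-values measure the spread between these samples.

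The members and lists were chosen with earlier results of these data known. The text names the 5 members, the 3 miRNAs most like miR-559 and miR-318-0 with at least 10 counts on average, the least like, and the listed sets. Predicted miR-895 was singled out after its sequence was compared. Sequences and positions come from the study's list of predicted miRNAs.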

Additional observations from a re-analysis of the deposited data

Results flagged for a closer look

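These results were marked because every replicate pair changed in one direction at an early time and in the opposite direction at 22 h. From the co-culture to the DO group, miR-835 had a log2 fold change of -1.49 at 1 h and 1.35 at 22 h, miR-318-0 of -1.32 and 0.72, and miR-319 of -1.27 and 0.73. The differences between these times, fitted as an interaction, were 2.69 (SE 0.74), 2.12 (SE 0.85) and 2.03 (SE 0.84) on the log2 scale, did not pass the threshold with edgeR, and are given without p because DO libraries in them had helped to choose each member. From the CBX to the DO group, miR-559 had a log2 fold change of -1.70 at 1 h, -0.47 at 6 h and 2.42 at 22 h, and miR-835 of -1.78, -0.58 and 2.24. Those differences between times were not tested, because the comparisons at 1 h and 6 h chose the members.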

How the results depend on the processing

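Alternatives were run for the counts of members called, the correlations and the shares. Between groups, 0 member values were called without the replicate block as with it. RLE size factors, a minimum count of 20 and identical entries kept once each gave 2 calls, DESeq2 4, no low-count filter 6 and predicted miRNAs alone 6. Leaving out a replicate gave 1 to 13 calls, the most without replicate 2, and leaving out the 4 libraries under 40000 counts, chosen after seeing the data, gave 7. Between times, the 4 calls became 10 without the low-count filter and 2 to 11 without a replicate. In the interactions, DESeq2 and library sizes from the deduplicated reads gave 2 calls, and pooled over groups leaving out a replicate gave 0 to 2. Among the alternatives, calls over all entries are given for DESeq2 alone. The other counts of member calls have no such share beside them and cannot be read as particular to the members. In the DO group from 1 h to 22 h, miR-318-0 and miR-319 were not called with deduplicated library sizes (log2 fold changes 1.98 and 1.97) or with predicted miRNAs alone. The correlation of miR-559 and miR-835 was 0.981 with a prior count of 0.5. That of miR-318-0 and miR-319 was 0.994 to 0.999 without a replicate and 0.993 without the 2 libraries of low predicted share or the 2 farthest from the median, where that of miR-559 and miR-318-0 was 0.776. The members' share of predicted counts was 4.2% (DO, 22 h) and 0.636% (DO, 1 h), and of deduplicated reads 0.0194% and 0.00365%. The causes were not tested. No log2 fold change in the comparisons that chose the members changed sign under these alternatives. Fits without a replicate rest on 2 libraries per group.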
